A study of Mus musculus with 6 samples.

Results

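The 9 genes described here are clade B serpins known from stratified epithelium, Serpinb1a, Serpinb2, Serpinb3a, Serpinb5, Serpinb6a, Serpinb8, Serpinb9, Serpinb11 and Serpinb12. They were taken by symbol from a table of 49671 genes, and all 9 passed the filter on low values. The 9 genes were chosen by name with measured levels and fold changes of these same libraries in view, so their counts and fold changes below are a description. The study set sex and castration beside gene expression in epidermal stem and progenitor cells. It held 3 groups of mice of the outbred CD1 stock, castrated males, females and intact males, with 2 libraries in each group. No transgene, allele or agent is named for any group, and no age and no interval after castration is given. Each library was polyA RNA of 100000 living ear keratinocytes sorted for integrin alpha 6 and against CD34, a gate for basal cells outside the hair follicle bulge. A library pooled 2 mice of 1 litter, so a p-value here reflects how pools vary, and litter and group cannot be told apart.

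Serpins are protease inhibitors that trap their target by offering it an exposed loop as bait and then changing shape around it. Clade B members lack the usual secretion signal and act mainly inside cells, where they guard the cytoplasm against proteases that leak or are taken up, although some are also released. In the epidermis they meet the kallikreins, cathepsins and plasminogen activators of the differentiating layers and the granule proteases of leukocytes. Not every member inhibits a protease. In the mouse they lie in a pair of clusters, on chromosomes 1 and 13, where repeated duplication has produced close paralogs.

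The promoters of 4 cluster genes are shown because their genes differed in how they ranked between the sexes in these libraries, Serpinb3a and Serpinb3b as close relatives with fold changes of unequal size. Each window covers an annotated start and lies mostly upstream of it (RefSeq, GRCm38.p6). Capitals mark matches on either strand to the AP-1 element TGANTCA and to the TATA box TATAAA.
Serpinb3a, chr1:107052254-107052553, minus strand: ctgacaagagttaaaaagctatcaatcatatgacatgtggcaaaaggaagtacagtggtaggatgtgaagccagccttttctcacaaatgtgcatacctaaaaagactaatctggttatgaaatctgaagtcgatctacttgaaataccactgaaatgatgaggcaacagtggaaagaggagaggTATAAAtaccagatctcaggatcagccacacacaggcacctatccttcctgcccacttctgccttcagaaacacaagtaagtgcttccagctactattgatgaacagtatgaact
Serpinb3b, chr1:107161065-107161364, minus strand: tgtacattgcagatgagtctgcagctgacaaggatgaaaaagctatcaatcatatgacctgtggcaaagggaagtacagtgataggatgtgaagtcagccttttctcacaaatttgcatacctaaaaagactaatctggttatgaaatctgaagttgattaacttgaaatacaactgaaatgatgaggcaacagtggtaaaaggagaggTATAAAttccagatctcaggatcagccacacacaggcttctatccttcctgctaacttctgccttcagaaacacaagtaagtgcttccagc
Serpinb12, chr1:106934199-106934498, plus strand: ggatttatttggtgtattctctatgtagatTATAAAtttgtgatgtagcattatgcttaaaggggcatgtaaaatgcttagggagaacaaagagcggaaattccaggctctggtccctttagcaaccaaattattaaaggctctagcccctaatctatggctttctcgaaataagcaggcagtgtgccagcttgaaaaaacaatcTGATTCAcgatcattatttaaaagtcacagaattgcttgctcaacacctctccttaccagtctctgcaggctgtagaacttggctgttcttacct
Serpinb2, chr1:107511173-107511472, plus strand: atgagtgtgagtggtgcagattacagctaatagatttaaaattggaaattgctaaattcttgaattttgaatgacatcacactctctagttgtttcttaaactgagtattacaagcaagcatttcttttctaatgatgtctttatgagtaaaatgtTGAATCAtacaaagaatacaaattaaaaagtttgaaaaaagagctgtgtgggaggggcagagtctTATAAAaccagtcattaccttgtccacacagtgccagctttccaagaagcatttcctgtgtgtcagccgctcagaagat
The Serpinb3a and Serpinb3b windows were identical at 79.3% of aligned positions, and each held the TATA box letters and no AP-1 letters. RefSeq windows were found for 8 of the 9 genes, 11 windows in all, and Serpinb1a had none in the table used. The AP-1 letters occurred in 6 of the 11 windows, from Serpinb2, Serpinb5, Serpinb8, Serpinb11 and Serpinb12, and in 7.81% of 32851 mouse promoter windows of the same length. The Serpinb12 window that is not shown held none. The TATA box letters occurred in 5 windows, from Serpinb2, Serpinb3a and Serpinb12, and in 13.6% of all windows. Relative to the annotated start they lay at -65 for Serpinb3a and at -220 and -201 for the Serpinb12 windows. In the Serpinb2 windows they lay at -29 and -116. The STAT element TTCNNNGAA occurred in 3 windows, from Serpinb2 and Serpinb6a, and in 8.30% of all windows. Windows of 1 gene can overlap, and a match is a run of letters, not a bound site.

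The libraries held 8412487 to 9648154 reads in genes, and 1 read was worth 0.102 to 0.128 CPM, the read count relative to the scaled size of its library. Markers of basal and of suprabasal cells were both present. The basal keratin Krt14 stood between 12468 and 17440.5 CPM and its partner Krt5 between 10016 and 13398 CPM, while the suprabasal keratin Krt10 stood between 153 and 232 CPM and Cd34 between 1.49 and 3.05 CPM. Other suprabasal genes were abundant, the keratin Krt2 at 8593 to 10743 CPM, the desmosomal cadherin Dsg1a at 561 to 1085 CPM and Krtdap at 440 to 973 CPM. The summed activated keratinocyte markers, among them Krt6a, Krt16 and S100a8, were 896 and 1019 CPM in castrated males, 1888 and 4217 CPM in females, and 977 and 1052 CPM in males, and 9 of the 11 tested were called higher in females than in males (2 without female replicate 2, and 5 without male replicate 2 or either castrated male library). Langerhans and dendritic cell markers summed to 436 and 508 CPM in castrated males, 1139 and 2435 CPM in females, and 413 and 460 CPM in males, with 4 of 9 tested called higher in females than in males. These 4 were the MHC class II antigen presentation genes H2-Ab1, Ciita, H2-Aa and Cd74. For this and the other marker lists, 3.7% of all tested genes were called higher in females than in males and 2.39% lower. Cd74 alone held 603 and 1354 CPM of the female sums. Cd207, which defines Langerhans cells, stayed between 5.01 and 8.46 CPM in all 6 libraries. Granular and cornified layer markers other than Krt2 summed to 507 and 601 CPM in castrated males, 605 and 1044 CPM in females, and 377 and 430 CPM in males. Of the 16 in this list, 7 were called higher in females than in males, Flg, Cnfn, Rptn, Abca12, Asprv1, Sprr1a and Sprr2d, and 2 lower, Flg2 and Lce1m, with a median log2 fold change of 1.73. Without female replicate 2 none of the 15 tested was called, without male replicate 2 there were 2 higher and 1 lower, and without either castrated male library there was 1, lower. In castrated males against males limma called 0 of the 16, beside 0.0389% of all tested genes. At an unadjusted p under 0.05 there were 8, beside 5.93% of all tested genes, and the median log2 fold change of the 16 was 0.91. Of the 10 spinous layer markers 3 were called higher in females than in males, Krt1, Ptgs1 and Krtdap, and 1 lower, Dsg1a, and none was called without female replicate 2, while 2 were called without male replicate 2 or either castrated male library. Without the filter on low values the calls in females against males numbered 3 for activated keratinocyte markers, 1 for granular and cornified markers and 0 for the spinous and the Langerhans and dendritic lists. Outside females, S100a8 reached at most 1.14 CPM and S100a9 and Rptn at most 0.64 CPM, below the 1.16 CPM of the filter. Lcn2 reached it outside females only in male replicate 1, and Sprr2h only in castrated male replicate 2. The filter asks for 2 libraries, so these genes were tested only because females were high, and their calls are a description. The share called in the activated and granular lists is therefore partly set by the filter. The part of these marker shifts in the serpin values was not tested, and in bulk RNA fewer cells of a type and less RNA per cell cannot be told apart.

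Serpinb2 and Serpinb5 were the most abundant of the 9 serpins, summing to 1757 to 2154 CPM in a library. Serpinb2 encodes plasminogen activator inhibitor type 2, which blocks urokinase, and Serpinb5 encodes maspin, which inhibits no known protease. Per kilobase of transcript, Serpinb2 averaged 509 CPM over the 6 libraries and Serpinb5 averaged 347 CPM. Their library values overlapped, from 302 to 638 CPM per kilobase for Serpinb2 and from 296 to 432 for Serpinb5. Next came Serpinb6a with 73.9, Serpinb8 with 36.4, Serpinb1a with 28.9, Serpinb3a with 22.4, Serpinb12 with 15.2 and Serpinb11 with 11.4 CPM per kilobase. Serpinb9 closed the order with 1.00 CPM per kilobase, and its highest library, at 1.35, lay below the lowest library of every other member. The ranges of Serpinb5, Serpinb6a and Serpinb8 did not overlap one another, whereas from Serpinb8 down to Serpinb11 each gene's range overlapped that of the next. The position of Serpinb3a depended on the group. Per kilobase it ran from 2.83 to 58.7 CPM. The sum over all 28 clade B rows of the table was nearly level in the 6 libraries, at 3436 to 3747 CPM.

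**Figure D1:**
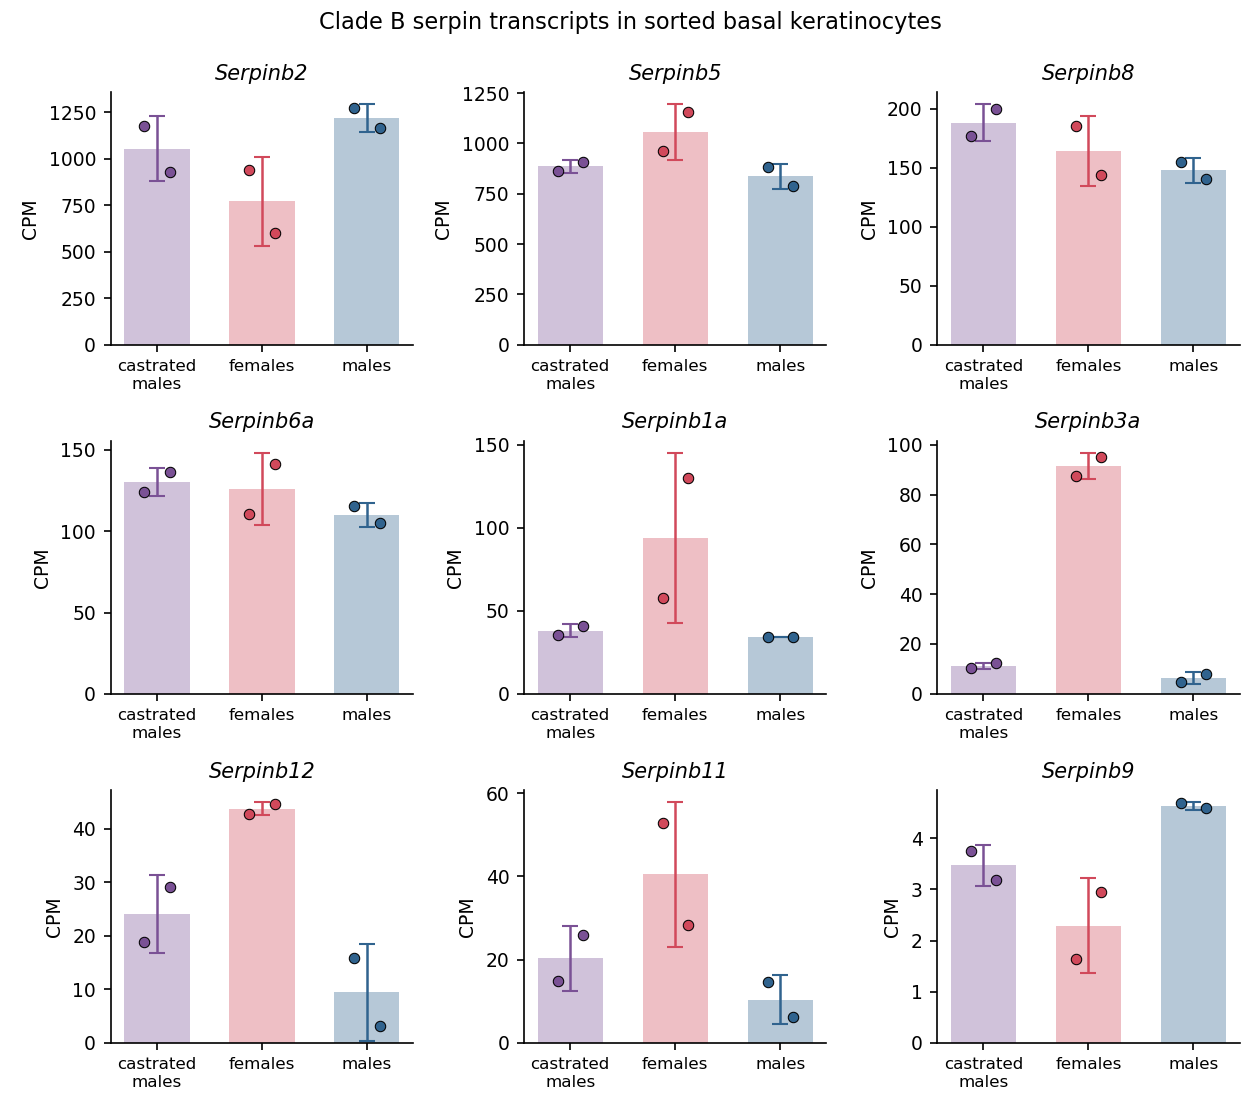
Level of each of the 9 serpins in CPM (vertical axes, each starting at 0) in castrated males, females and males. Points are the 2 libraries of a group, bars their mean and whiskers the SD. Serpinb3a is high in both female libraries, at 87.6 and 95.1 CPM, and 12.2 CPM or lower in the other 4, while Serpinb1a and Serpinb12 each hold a group whose 2 libraries lie far apart.

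Serpinb3a (chr1:107045587-107052303, minus strand, GRCm38) had the largest fold change between the sexes among the 9 genes. It is a mouse relative of the human squamous cell carcinoma antigens, which inhibit cysteine cathepsins and chymotrypsin-like serine proteases. It had 10.5 and 12.2 CPM in castrated males, 87.6 and 95.1 CPM in females, and 4.58 and 7.87 CPM in males. Both female libraries stood far above the other 4, and the castrated and intact males did not overlap either. The mean and SD were 91.4 ± 5.31 CPM in females against 6.23 ± 2.33 CPM in males (n = 2 each). The fold change of females against males was 3.82 ± 0.24 on the log2(CPM + 0.5) scale, or 14.1-fold, with a limma adjusted p of 0.000196 over the 15413 genes tested. Castrated males were 7.79-fold lower than females, with a log2 fold change of -2.96 ± 0.24 and an adjusted p of 0.00082. Castrated males against males gave 0.85 ± 0.24, with an adjusted p of 0.633, so the higher level in the castrated pools did not pass the test. Of the transcript's 50-base windows, 15.1% also occur in another gene and 9.87% occur in the neighbouring pseudogene Gm8080, so its exact level depends on how such reads were counted.

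The paralogs beside Serpinb3a on chromosome 1 had smaller fold changes, although the difference between genes was not tested. Serpinb3b, the most abundant of the 4, had 516 and 545 CPM in castrated males, 683 and 665 CPM in females, and 300.2 and 499 CPM in males. Its groups did not overlap, yet females against males gave 0.80 ± 0.21 with an adjusted p of 0.0582 in limma, short of the threshold of 0.05. Serpinb3c had 20.9 and 18.2 CPM in castrated males, 25.3 and 24.4 CPM in females, and 11.4 and 17.3 CPM in males, a log2 fold change of 0.80 ± 0.22 for females against males with an adjusted p of 0.0672. Serpinb3d was read 28 and 28 times in castrated males, 92 and 61 times in females, and 19 and 23 times in males. It rose in females against males by 1.68 ± 0.27, with an adjusted p of 0.0161, and lost that call without female replicate 2, with an adjusted p of 0.116. Within a library, Serpinb3a amounted to 2.03% and 2.23% of Serpinb3b in castrated males, 12.8% and 14.3% in females, and 1.53% and 1.58% in males, a ratio that does not depend on library size. The pseudogene Gm8080 averaged 1.93 ± 0.81 CPM in castrated males, 23.2 ± 20.9 CPM in females and 2.25 ± 1.03 CPM in males. Its log2 fold change of females against males was 2.80 ± 0.61, with an adjusted p of 0.0356. That call was lost without female replicate 2 (1.74, adjusted p 0.227), male replicate 2 (0.111), castrated male replicate 1 (0.067) or castrated male replicate 2 (0.0669). Serpinb3b's annotated span covers nearly all of Serpinb3c on the same strand, and 12.2% to 15.1% of the 50-base windows of the 4 paralogs occur in another gene, so reads of near-identical stretches may have been split or dropped among them.

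**Figure D2:**
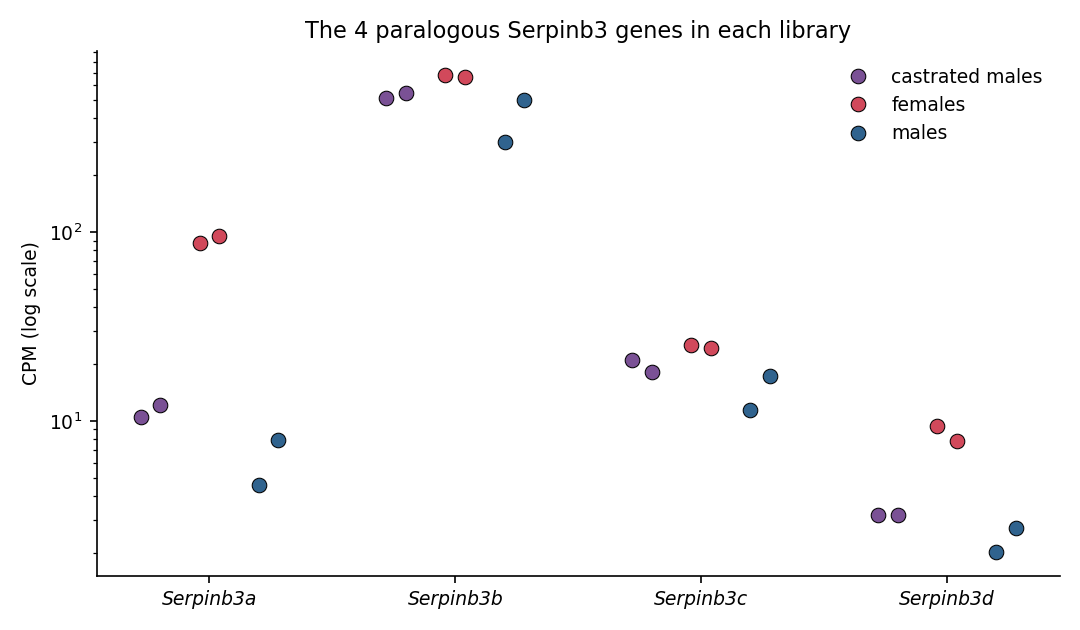
CPM on a log axis of the 4 Serpinb3 paralogs in each library, with castrated males, females and males from left to right. The female points of Serpinb3a sit well apart from the other 4, whereas those of Serpinb3b and Serpinb3c lie just above them and those of Serpinb3d in between.

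Serpinb11 (chr1:107361198-107380475, plus strand) and Serpinb12 (chr1:106934449-106957080, plus strand) were also higher in females than in males. Mouse Serpinb11 inhibits trypsin-like proteases, and human SERPINB12 inhibits trypsin and plasmin. Serpinb12 had 18.9 and 29.1 CPM in castrated males, 42.8 and 44.6 CPM in females, and 15.8 and 3.05 CPM in males. The female libraries agreed closely and all 3 groups were apart from one another, but the male libraries differed several-fold. The fold change of females against males was 2.54 ± 0.57 (log2), with a limma adjusted p of 0.0378. Without male replicate 1 it was 3.64 and without male replicate 2 it was 1.44, still called in both cases. The call was lost without female replicate 1 (adjusted p 0.0801), female replicate 2 (0.27), and castrated male replicate 1 or 2 (0.0709 each), although the last pair left the fold change as it was.

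Serpinb11 had 14.8 and 25.8 CPM in castrated males, 52.8 and 28.2 CPM in females, and 14.5 and 6.23 CPM in males. Its 3 groups were apart from one another, with castrated males in the middle. Females exceeded males by 1.96 ± 0.43 (log2), with an adjusted p of 0.0344 in limma. It was still called without male replicate 1, at 2.54. Leaving out male replicate 2 gave 1.38 (adjusted p 0.1), and leaving out female replicate 1 gave 1.52 (adjusted p 0.101). Without female replicate 2 the adjusted p was 0.134, and without castrated male replicate 1 or 2 it was 0.0592 or 0.0600.

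Of the 3 inhibitors of leukocyte granule proteases, Serpinb1a was called between the sexes, and Serpinb6a and Serpinb9 were not. Serpinb1a (chr13:32842092-32851185, minus strand) blocks neutrophil elastase, cathepsin G and chymase. It had 35.1 and 40.6 CPM in castrated males, 57.6 and 130.01 CPM in females, and 34.3 and 34.4 CPM in males. Both female libraries were above the other 4, and the second was more than double the level of the first. The fold change of females against males was 1.32 ± 0.31 (log2), with a limma adjusted p of 0.0432. Without female replicate 2 it was 0.74 with an adjusted p of 0.16, and without female replicate 1 it was 1.90 with an adjusted p of 0.00307. The call was also lost without male replicate 1 (0.0836), male replicate 2 (0.103), castrated male replicate 1 (0.0903) and castrated male replicate 2 (0.0894), each with a fold change of 1.32. Female replicate 2 was also the library with the highest sum of activated keratinocyte markers, 4217 CPM, and of Langerhans and dendritic cell markers, 2435 CPM. Their part in the Serpinb1a value was not tested. Neutrophil and macrophage markers summed to 30.0 and 37.8 CPM in castrated males, 32.5 and 49.1 CPM in females, and 27.2 and 31.7 CPM in males. Elane, the neutrophil elastase gene, was at 0 in every library. Of the 5 tested, 1 was called higher in females than in males, Cxcr2, with a limma adjusted p of 0.0359, beside 3.7% of all tested genes. Cxcr2 had 1.59 and 2.96 CPM in castrated males, 3.37 and 11.8 CPM in females, and 0.96 and 0.70 CPM in males.

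Serpinb6a, an inhibitor of cathepsin G and of kallikrein 8, had 124 and 136 CPM in castrated males, 111 and 142 CPM in females, and 115 and 105 CPM in males, and females and males overlapped. Females against males gave 0.18 ± 0.15 (log2), with an adjusted p of 0.481 in limma. Its annotated exons overlap those of Ripk1, Nqo2 and 1110046J04Rik on the opposite strand, and the strand setting of the counting is not given, so some of its reads may belong to these genes. Serpinb9, which protects cells from granzyme B, was the scarcest member, with 33 and 28 reads in castrated males, 16 and 23 in females, and 44 and 39 in males. In CPM these were 3.75 and 3.19 in castrated males, 1.64 and 2.95 in females, and 4.69 and 4.58 in males, so the groups were apart, males highest. Females against males gave -0.92 ± 0.32 (log2), with a limma adjusted p of 0.12. Gzmb, the granzyme B gene, had 0.114 CPM in castrated male replicate 1, 0.513 CPM in female replicate 2 and 0 in every other library. The T and NK cell markers summed to 19.1 and 21.3 CPM in castrated males, 17.4 and 30.0 CPM in females, and 21.5 and 9.99 CPM in males. Gzma and Cd8a were at 0 in every library. Of the 5 tested, 1 was called higher in females than in males, beside 3.7% of all tested genes. It was Cd5, which averaged 12.9 CPM in females and 4.78 CPM in males, with a limma adjusted p of 0.0327.

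Neither of the most abundant members was called between the sexes in the fit of all 6 libraries without a replicate block. Serpinb2 had 1178 and 930 CPM in castrated males, 941 and 602 CPM in females, and 1273 and 1168 CPM in males. Both female libraries lay below both male libraries, and the castrated males overlapped with each of the other groups. The fold change of females against males was -0.70 ± 0.21 (log2), with a limma adjusted p of 0.0876. It passed the threshold without female replicate 1, at -1.02 with an adjusted p of 0.0158, and was -0.37 with an adjusted p of 0.434 without female replicate 2. Serpinb5 had 863 and 907 CPM in castrated males, 960 and 1155 CPM in females, and 881 and 790 CPM in males, with females above males in every library and a log2 fold change of 0.34 ± 0.14 at an adjusted p of 0.183. Relative to Serpinb5 in the same library, Serpinb2 stood at 136% and 102% in castrated males, 98.0% and 52.1% in females, and 145% and 148% in males. Serpinb8, whose human counterpart inhibits furin, had 177 and 199 CPM in castrated males, 185 and 143 CPM in females, and 155 and 140 CPM in males. Its sexes overlapped, and the fold change of 0.14 ± 0.15 had an adjusted p of 0.595.

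Of the 9 members, 4 were thus called higher in females than in males and none lower, where 6.1% of the 15413 tested genes were called, 3.7% as higher and 2.39% as lower. At an unadjusted p under 0.05 there were 7 members, beside 24.9% of all tested genes. The groups were apart for 7 members, beside 53.7% of all tested genes, of which 5 had females higher and 2 had females lower, against 26.6% and 27.2% of all tested genes. The members' median log2 fold change was 0.34, beside -0.01 for all tested genes. Fold changes also followed transcript length, with a Spearman rho of -0.147 over 15366 genes in females against males, 0.148 in castrated males against females and -0.016 in castrated males against males, so shorter transcripts tended to stand higher in females. The 4 called members, at 1620 to 2084 bases, were shorter than the median tested transcript of 2745 bases, and so were 7 of all 9 members. The part of this trend in the calls was not tested. In the sum over the 9 members Serpinb3a made up 0.43% and 0.53% in castrated males, 3.59% and 4.06% in females, and 0.18% and 0.35% in males. Serpinb2 made up 48.6% and 40.7% in castrated males, 38.6% and 25.7% in females, and 51.0% and 51.7% in males. The sum itself was 2426 and 2284 CPM in castrated males, 2439 and 2343 CPM in females, and 2499 and 2260 CPM in males, so the groups overlapped in total while its makeup differed.

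**Figure D3:**
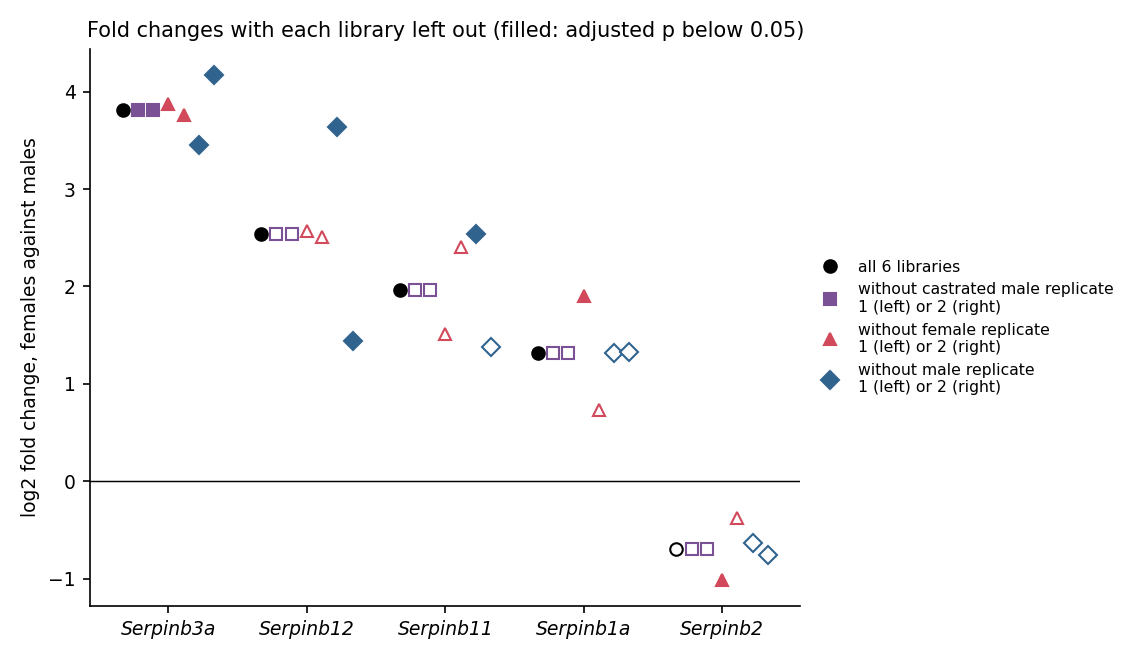
Log2 fold change of females against males for 5 serpins (horizontal axis) with all 6 libraries and with each library left out in turn. Filled symbols have an adjusted p below 0.05. Serpinb3a is filled in every case, between 3.45 and 4.18, while each of the other 4 loses or gains its call with the library left out.

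Castration gave no call among the 9 serpins. In castrated males against males, limma called 0 of 9 members, where 0.0389% of all tested genes were called, 0.013% as higher and 0.026% as lower, 6 genes in all. At an unadjusted p under 0.05 there were 4 members, Serpinb3a, Serpinb11, Serpinb12 and Serpinb8, beside 5.93% of all tested genes. Both castrated pools lay above both male pools for 6 members, Serpinb1a, Serpinb3a, Serpinb6a, Serpinb8, Serpinb11 and Serpinb12, and below them for Serpinb9. Of all tested genes 35.5% were apart, 17.3% with castrated males higher and 18.2% with castrated males lower. The log2 fold changes of these 6 ran from 0.14 ± 0.31 for Serpinb1a to 1.66 ± 0.57 for Serpinb12. The members' median was 0.24, beside 0.00 for all tested genes. Serpinb12 had an adjusted p of 0.752 with all libraries, and it was called without male replicate 1, at 2.75 with an adjusted p of 0.00623, and stood at 0.56 without male replicate 2. The comparison shares its male libraries with that of females against males, and so does not stand independent of it.

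In castrated males against females, 1 of 9 members was called, Serpinb3a, where 1.73% of all tested genes were called, 1.15% as lower and 0.571% as higher. At an unadjusted p under 0.05 there were 2 members, Serpinb3a and Serpinb1a, beside 21.6% of all tested genes. The castrated pools were apart from the female pools for 5 members with castrated males lower, namely Serpinb1a, Serpinb3a, Serpinb5, Serpinb11 and Serpinb12, and for Serpinb9 with castrated males higher, against 28.3% and 29.4% of all tested genes, or 57.7% together. The members' median log2 fold change was -0.25, beside 0.01 for all tested genes. Serpinb1a had -1.18 ± 0.31 with an adjusted p of 0.0903, which became -1.77 with an adjusted p of 0.00444 without female replicate 1. Serpinb2 had 0.48 ± 0.21 with an adjusted p of 0.237, and 0.80 with an adjusted p of 0.0367 without that library. Serpinb11 had -0.96 ± 0.43 and Serpinb12 had -0.88 ± 0.57, with adjusted p-values of 0.234 and 0.394. The female libraries are shared with the comparison of females against males.

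The other clade B genes moved in both directions. The chromosome 1 cluster spans 749 kb, from 106861173 to 107610484 (GRCm38), and holds 12 rows of the table and 6 members. The chromosome 13 cluster spans 1161 kb, from 32842092 to 34002794, with 16 rows and the members Serpinb1a, Serpinb6a and Serpinb9. Of the 19 clade B rows outside the 9, 10 passed the filter, and limma called 3 of these higher and 2 lower in females than in males. Of all tested genes 3.7% were called higher and 2.39% lower. The 9 rows that failed the filter held at most 18 reads in any library, those of Serpinb1c in female replicate 2. Besides Serpinb3d the called genes were Serpinb13 and Serpinb6d upwards and Serpinb7 and Serpinb6b downwards. Serpinb13, whose human counterpart inhibits cathepsins K and L, had 2.62 and 1.94 CPM in castrated males, 5.83 and 7.56 CPM in females, and 1.92 and 0.47 CPM in males, a log2 fold change of 2.22 ± 0.44 for females against males with an adjusted p of 0.0269. Its call was lost without male replicate 2 (1.56, adjusted p 0.0561), female replicate 2 (0.229), castrated male replicate 1 (0.0597) or castrated male replicate 2 (0.0587). Serpinb6d had 0 and 1 reads in castrated males, 13 and 14 reads in females, and 1 and 0 reads in males. These counts are too low for a stable fold, and the call was lost in 7 of 11 alternatives. Only its female libraries reached the CPM of the filter, so Serpinb6d was tested only because females were high, and its call is a description. A count of 0 allows up to 3 reads, which equal 0.307 to 0.385 CPM, and covers counting error only.

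Serpinb7 and Serpinb6b were called lower in females than in males. Serpinb7, whose human counterpart is lost in a palmoplantar keratosis, had 500.2 and 473 CPM in castrated males, 277 and 229 CPM in females, and 374 and 697 CPM in males. Its log2 fold change of females against males was -1.02 ± 0.25 with a limma adjusted p of 0.0486, and the male pools differed almost as much from each other as from the females. It was -1.46 with an adjusted p of 0.00406 without male replicate 1. The call was lost at -0.57 without male replicate 2 (0.113), and without female replicate 1 (0.0614), female replicate 2 (0.341), castrated male replicate 1 (0.104) or castrated male replicate 2 (0.104). Serpinb6b was read 31 and 55 times in castrated males, 3 and 5 times in females, and 28 and 36 times in males. It fell in females against males by 2.08 ± 0.38 on the log2 scale, with an adjusted p of 0.0216, and was higher in castrated males than in females by 2.44 ± 0.38, with an adjusted p of 0.0225. Without female replicate 2 these adjusted p-values were 0.117 and 0.117, and the first was 0.0666 without male replicate 2. The second was also lost without castrated male replicate 1 (0.102) or 2 (0.214). Of the 5 tested genes that were not called, Serpinb3b and Serpinb3c are given above. Serpinb10 had 0.57 ± 0.21, Serpinb6c 0.31 ± 0.28 and Serpinb1b -0.46 ± 0.36 for females against males. Serpinb10 is annotated as a polymorphic pseudogene and its exons overlap those of Serpinb2 on the same strand, so reads at the overlap are uncertain for both. No clade B gene was called in castrated males against males with all libraries.

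**Figure D4:**
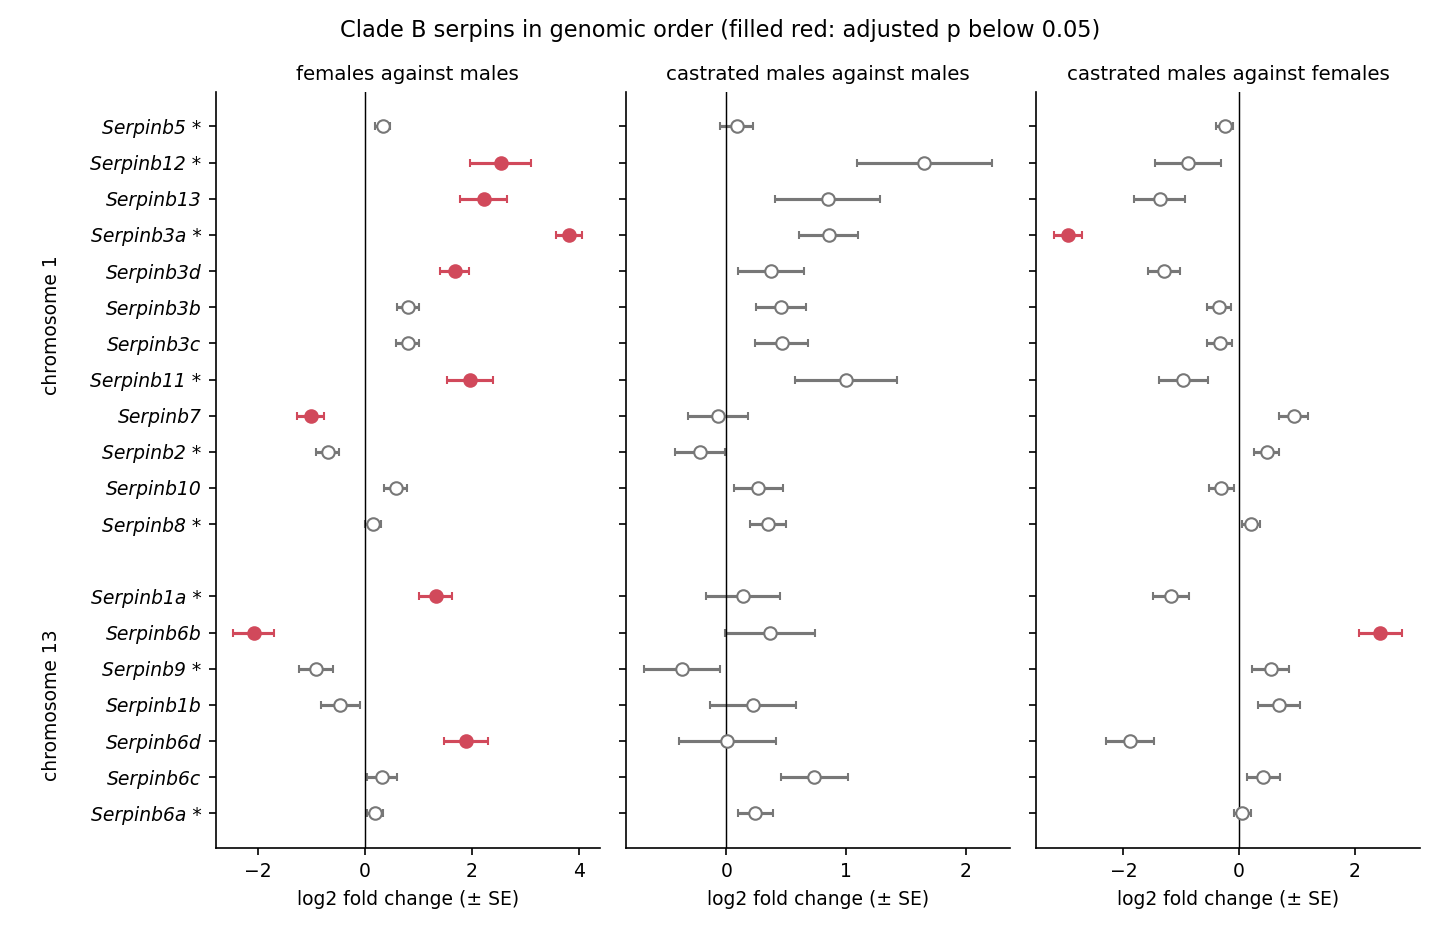
Log2 fold change with its standard error (horizontal axes, scales differ between panels) of the 19 tested clade B genes in genomic order, for females against males, castrated males against males and castrated males against females. Asterisks mark the 9 members and filled red symbols an adjusted p below 0.05. In females against males, called genes on chromosome 1 lie on both sides of 0, with Serpinb3a farthest out at 3.82, and Serpinb6d rests on 13 and 14 reads.

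The genes flanking the serpins gave no call. The 3 nearest tested genes on either side of each cluster were not called in any comparison. Among them were Bcl2, Vps4b and Tsn on chromosome 1 and Foxc1 and Tubb2a on chromosome 13. Of all tested genes 6.1% were called in females against males. The shares were 0.0389% in castrated males against males and 1.73% in castrated males against females. With so few flanking genes, a lack of calls does not set them apart from all tested genes. Nearest does not mean adjacent. Beyond the end of the chromosome 1 cluster at 107610484, they start at 111858702 (Dsel), 118294778 (Tsn) and 118321839 (Nifk). Nqo2, inside the chromosome 13 cluster, had a log2 fold change of 0.14 for females against males. Ripk1, which only overlaps the end of that cluster and runs on to 34037147, had -0.21, and neither was called. Gm8080, given above, was the only called gene among those tested inside or overlapping either cluster, apart from the clade B rows.

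Among the other serpins, those of other clades, none of the 18 tested of 40 rows was called higher in females than in males, and 4 were called lower. Of all tested genes 3.7% were called higher and 2.39% lower. All 4 called serpins are Serpina3 paralogs, close copies among which reads may have been split. Serpina3h averaged 446 ± 18.6 CPM in females and 747 ± 41.6 CPM in males, a log2 fold change of -0.74 ± 0.13 with a limma adjusted p of 0.0216. Serpina3i, Serpina3g and Serpina3e-ps had -0.77, -0.70 and -0.77, with adjusted p-values of 0.0225, 0.0308 and 0.0486. Without female replicate 2 all 4 calls were lost, with adjusted p-values of 0.137 for Serpina3h, 0.165 for Serpina3i, 0.16 for Serpina3g and 0.304 for Serpina3e-ps. Without male replicate 2 all 4 were lost as well, at 0.0780, 0.0680, 0.0998 and 0.115 for these genes in turn. Without either castrated male library only Serpina3i kept its call. No gene of this list was called in either comparison of castrated males.

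Among proteases that clade B serpins meet, more were called higher than lower in females against males. Of 40 rows in this list 23 passed the filter, and 7 were called higher and 1 lower in females than in males. Of all tested genes 3.7% were called higher and 2.39% lower. The kallikrein Klk13 had 1.71 and 3.53 CPM in castrated males, 19.6 and 54.1 CPM in females, and 1.28 and 0.94 CPM in males. Its log2 fold change of females against males was 4.37 ± 0.47, with a limma adjusted p of 0.00382, and that of castrated males against females was -3.48 ± 0.47, with an adjusted p of 0.015. Cathepsin L, Ctsl, a cysteine protease of the kind that the human relatives of Serpinb3a inhibit, had 273 and 269 CPM in castrated males, 171 and 164 CPM in females, and 299 and 306 CPM in males. Ctsl fell in females against males by 0.85 ± 0.11 on the log2 scale, with an adjusted p of 0.00712 (0.0515 without female replicate 2), and was higher in castrated males than in females by 0.69 ± 0.11, with an adjusted p of 0.0243. Both calls against females, for Klk13 and Ctsl, were lost without female replicate 2 (0.117 and 0.123), castrated male replicate 1 (0.158 and 0.276) or castrated male replicate 2 (0.0595 and 0.214). For Ctsl the 3 groups were apart from one another, with castrated males between females and males. Casp4, an inflammatory caspase, averaged 10.4 ± 5.04 CPM in females and 0.74 ± 0.45 CPM in males, with a log2 fold change of 3.10 and an adjusted p of 0.00884. Klk10 averaged 83.1 ± 47.3 CPM in females and 17.4 ± 10.1 CPM in males, with a log2 fold change of 2.22 and an adjusted p of 0.0298. Without female replicate 2 Casp4 and Klk10 lost their calls, with adjusted p-values of 0.101 and 0.253. Klk10 also lost its call without male replicate 1 (0.0699), castrated male replicate 1 (0.059) or castrated male replicate 2 (0.0587). The other called genes were Casp1, Tmprss4, Ctsz and Klk7. The mast cell proteases Cma1 and Mcpt4 were at 0 in every library.

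Of 8 partners and receptors of the plasminogen system 6 were tested, and only Thbd, thrombomodulin, was called in females against males, beside 6.1% of all tested genes. Thbd averaged 65.6 ± 28.6 CPM in females and 8.38 ± 4.93 CPM in males, with a log2 fold change of 2.94 ± 0.40 and a limma adjusted p of 0.00878, which was 0.103 without female replicate 2. No gene of the protease or plasminogen lists was called in castrated males against males.

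The genes whose levels followed the called members and Serpinb2 most closely over the 6 libraries were listed by Pearson r of log2(CPM + 0.5), as a description. Candidates were tested genes above a minimum mean CPM, and all clade B serpins were left out. For Serpinb3a these were Tmprss13, a membrane serine protease, with an r of 0.997, and Fam134b and Casp6, each with 0.994. Their own fold changes of females against males were smaller, 0.73 for Tmprss13, 0.80 for Fam134b and 0.44 for Casp6 on the log2 scale. For Serpinb1a they were Rpl28, Mrps27 and Smyd5, each with an r of 0.999. For Serpinb2 they were Tbce and B430010I23Rik with 0.997 and Tmem170b with 0.995. Serpinb11 was followed by Sgol2a, Klhl24 and Ptch1 at 0.979, 0.976 and 0.975, and Serpinb12 by Rpl35a-ps2, Exoc1 and Mfsd7b at 0.989, 0.988 and 0.987. The 6 points are the same libraries for every gene and fall into 3 groups, so a high r can come from the groups alone.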

How the data were processed

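The authors deposited 1 table of 49671 mouse genes with a column for each of 6 libraries. Its values are a score as deposited: counts of reads per gene, scaled in each library to the same total and rounded. The scaling was inferred from the values; the annotation, strand setting and scaling method are not stated in these sources. FastQC, STAR 2.7.5a, Picard and HTSeq 0.11.1 were used with GRCm38 and mm10, per the submitters' processing notes. Dividing each column by its own step returned whole reads for 100% of values within rounding.

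Library sizes were scaled by TMM (factors 0.927 to 1.03). Genes with at least 1.16 CPM, worth 10 reads at the median depth, in 2 libraries and 15 reads in all were tested, 15413 genes. limma 3.58.1 (R 4.3.3) was fitted to log2(CPM + 0.5) over all 6 libraries with group means, an intensity trend, 3 residual degrees of freedom and two-sided tests. Adjusted p-values are Benjamini-Hochberg values over all tested genes, and a call means an adjusted p below 0.05. Fold changes understate the change of low genes. Negative binomial tests on the recovered reads had been planned and were not run. The deposited values themselves are scaled and are not counts. The same fit was tested on simulated data.

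The members and gene lists were chosen with earlier results of these data known. Named genes are the 9 members, all tested clade B genes, up to 4 genes of each other list with the smallest p, the 3 genes most like a called member or the most abundant one, and the genes flanking the clusters. The library named with the number 3 was titled male 2, and the title was used. Replicates differed beyond sampling noise, the chi-square divided by its degrees of freedom being 4.79 in castrated males, 13.6 in females and 12.9 in males. Transcript lengths are from GENCODE and promoters from RefSeq. Python 3.11.15, numpy 2.4.6, pandas 2.3.3 and Biopython 1.88 were used. The main fit did not pair libraries by replicate number.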

Additional observations from a re-analysis of the deposited data

How the results depend on the processing

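Over 13 alternatives, Serpinb3a kept its call in females against males (3.45 to 4.18, adjusted p 4.59e-05 to 0.0117) and in castrated males against females (-3.07 to -2.81). The number of members called in females against males was 4, and it was 1 without the filter on low values, 1 with only the 4 libraries compared, and 1 to 3 with a library left out. It ranged from 0 to 1 in castrated males against males and from 1 to 3 in castrated males against females with a library left out. Over all genes, 940 were called in females against males, 103 without the filter, 265 with only 4 libraries, and 49 to 1723 with a library left out. In castrated males against males 6 became 11 at a pseudocount of 2 CPM, 2 without the filter, and 1 to 68 with a library left out. In castrated males against females 266 became 33 without the filter, 575 with only 4 libraries, and 30 to 1283 with a library left out. The cause was not tested. With the replicate number as a block, 817, 5 and 162 genes and 4, 0 and 1 members were called in these 3 comparisons, and Serpinb2 replaced Serpinb12 among the 4 members. The deviations of libraries with the same number correlated at -0.153 (females and males), -0.0103 (castrated males and males) and 0.194 (castrated males and females). These values cannot show whether libraries with the same number shared a batch.

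Directions reversed only among uncalled values and only with a library left out, as the lowest and highest values show. These were Serpinb8 in females against males (-0.040 to 0.33), Serpinb10 (-0.060 to 0.60), Serpinb1b (-0.15 to 0.59), Serpinb6b (-0.012 to 0.74), Serpinb6d (-0.14 to 0.16) and Serpinb7 (-0.52 to 0.38) in castrated males against males, and Serpinb6a (-0.12 to 0.24) in castrated males against females. Scaling by total reads alone put the median log2 fold change of all genes at -0.07 in females against males and 0.08 in castrated males against females, and changed no member's call. With 2 pools per group, a difference that missed the threshold is not shown to be absent, and genes with few reads, such as Serpinb9, are the least precise. The planned negative binomial tests on recovered reads were not run.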
